A study of Ovis aries with 32 samples.

Results

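The collagen genes of sheep perirenal preadipocytes were followed through differentiation into adipocytes, with and without fetal growth restriction. A collagen gene was any gene whose name, in upper case, consists of COL, a number, A and a number, and the values of its transcripts were summed. Of 21271 genes listed, 40 carried such a name, and they held 124 transcripts. Of the 40 genes, 29 reached a value of 10 in at least 4 of the 32 libraries and were tested, together with the other genes among the 12737 that passed the same filter. They comprised 10 of 11 fibrillar collagens, 5 of 5 basement membrane collagens, 5 of 9 fibril-associated collagens with interrupted helices (FACIT) and 9 of 15 collagens of other kinds. COL4A3 passed with 5 libraries at 10 or more, and COL17A1 fell short with 3. No row was named COL4A4, COL6A1, COL7A1 or COL20A1, and these were not analysed here.

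Collagens are the main structural proteins of the extracellular matrix, and their chains wind around each other into a helix. Fibrillar collagens assemble into the fibrils that bear tension, basement membrane collagens form the sheet that surrounds each adipocyte, and FACIT collagens sit on the surface of fibrils. Chains are hydroxylated and glycosylated before secretion, trimmed and cross-linked outside the cell, and degraded by metalloproteinases and by uptake. An expanding fat cell remodels a fibroblast-like matrix into one with a prominent basement membrane.

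The study used singleton fetuses of crossbred Columbia-Rambouillet ewes near term. Growth restriction was produced by placental insufficiency in ewes kept under ambient hyperthermia, and the control ewes were matched to them in feed intake. Preadipocytes were isolated from the perirenal fat of the fetuses and differentiated in culture. RNA sequencing covered male controls (MC), female controls (FC), growth-restricted males (MFGR) and growth-restricted females (FFGR) as preadipocytes, and the same groups after differentiation (MCD, FCD, MFGRD and FFGRD), with 4 libraries in each of the 8 groups. The sources used here do not say whether same-numbered libraries of the 2 stages share a fetus. Growth-restricted fetuses differed from controls in their ewe's heat exposure as well as in growth, and these cannot be told apart.

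The deposited values are reads normalized by DESeq2, and the values of a library summed to 9.52 to 21.22 M. These corresponded to about 7.92 to 21.34 M reads. A value of 10 stood for 5.6 to 14.4 reads, so values below this are known to within a few reads at best. Levels below are in normalized reads, in the order of replicates 1 to 4. Adiponectin (ADIPOQ), a hormone of mature adipocytes, ranged from 0 to 215.7 in preadipocytes and from 8.59 to 13421 after differentiation, where the lowest library was FCD 4. All 10 of 10 adipocyte markers rose with differentiation, with 27.2% of all genes tested called as the background. In bulk RNA, fewer cells of a type and less RNA per cell cannot be told apart. Among the libraries, 9 stood apart in how their values depended on the length of a gene in the genome. Their slope of relative log2 value on log10 genomic span lay between −0.852 and −0.322, against −0.063 to 0.34 in the other 23. These were MCD 2 and 4, FC 2, FCD 2, MFGR 1, MFGRD 1, FFGR 2 and 3, and FFGRD 3. The collagen genes together held 1.03% to 4.55% of all values in these 9 libraries and 6.39% to 18.6% in the others, without overlap. Fits with this slope as a covariate and fits without the 9 libraries are given where they change a call for differentiation averaged over the fetal groups.

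The share of collagen in the normalized reads differed widely among libraries of both stages, and within collagen it shifted between classes. Collagen made up 9.32% ± 4.91 (SD, n = 16) of all values in preadipocytes and 9.40% ± 5.32 (SD, n = 16) in differentiated cells. By group, its mean went from 12.2% in MC to 7.01% in MCD and from 5.96% in FFGR to 9.67% in FFGRD, while it was 10.8% in FC and 11.3% in FCD, and 8.38% in MFGR and 9.57% in MFGRD. Within collagen, the fibrillar class held 86.6% ± 3.66 before and 73.6% ± 6.64 after differentiation. It was lower after differentiation in 4 of 4 fetal groups, and 13 of the 16 differentiated libraries lay below the lowest preadipocyte library. The basement membrane class held 1.45% ± 0.712 before and 10.4% ± 6.82 after. Of the 16 differentiated libraries, 15 lay above the highest preadipocyte library at 2.95%, and the exception, FCD 4, was at 1.35%. FCD 4 had the lowest level of each of the 10 adipocyte markers among the differentiated libraries. By group, its mean share went from 1.33% in MC to 17.6% in MCD, from 1.04% in FC to 6.17% in FCD, from 1.81% in MFGR to 7.71% in MFGRD, and from 1.63% in FFGR to 10.0% in FFGRD. The FACIT class held 3.79% ± 1.93 and 9.28% ± 4.68, and 9 differentiated libraries exceeded every preadipocyte library. The other collagens held 8.16% ± 3.87 and 6.73% ± 2.41, with overlapping ranges. COL1A1, COL1A2 and COL3A1 together took 72.9% ± 5.95 of collagen in preadipocytes and 56.5% ± 6.66 after differentiation. Without the 9 libraries named above, collagen made up 11.6% of all values before and 12.5% after differentiation. Within collagen, the fibrillar share was then 88.1% and 74.7%, and the basement membrane share 1.44% and 8.07%, with n = 12 and n = 11. Shares within a library depend on each other and are given as a description, without a test.

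**Figure D1:**
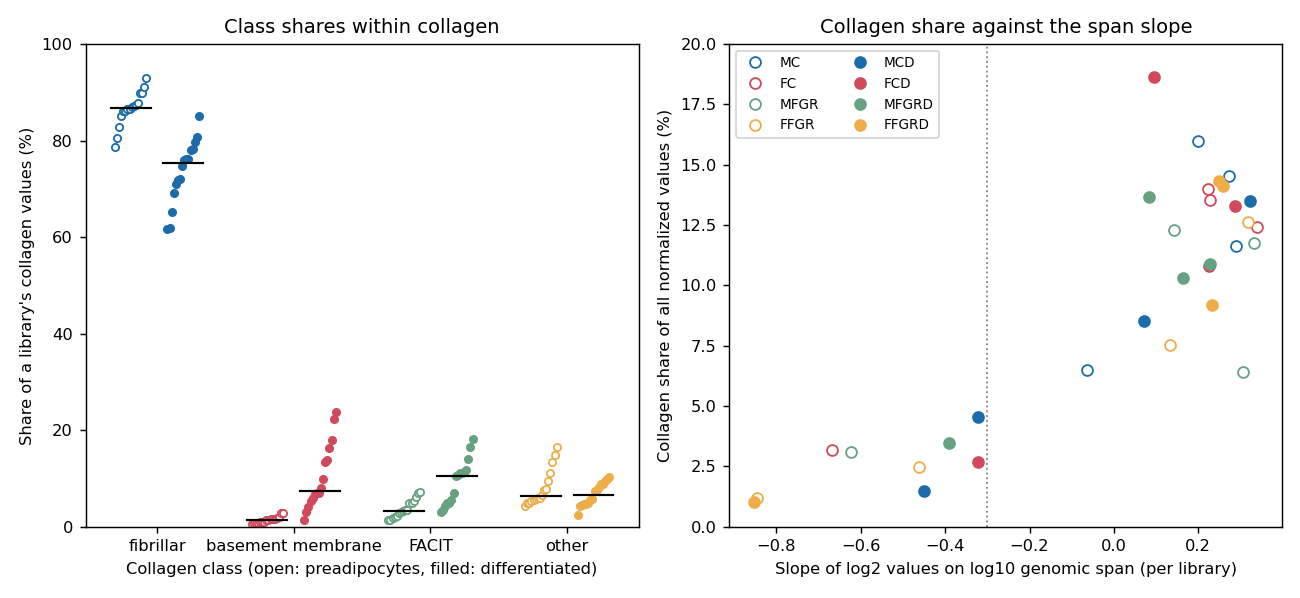
Share of the collagen classes within collagen (left, percent) and share of collagen in all values against the slope on genomic span (right). Left, each point is a library, open for preadipocytes and filled for differentiated cells, and the bar is the median of 16 libraries. The basement membrane share lies at or below 2.95% in preadipocytes and above it in 15 of 16 differentiated libraries. Right, the dotted line marks a slope of −0.3, and the 9 libraries left of it hold at most 4.55% collagen.

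The gene-level test asked which collagens changed with differentiation on average over the 4 fetal groups. A gene was called when limma gave an adjusted p below 0.05 and a fold above 1.5. Of the 29 collagens, 14 were called, 9 higher and 5 lower, against 27.2% of all 12737 genes tested (12.4% higher, 14.8% lower). In the fibrillar class 2 of 10 rose, in the basement membrane class 4 of 5 rose, in the FACIT class 1 rose and 2 fell of 5, and among the others 2 rose and 3 fell of 9. A gene that passed the filter through one stage only was selected in part for a difference between stages, which did not fix a call. Of the 24 collagens that would have passed in each stage alone, 10 were called, 7 higher and 3 lower, which is 41.7% against 24.2% of all genes that passed in each stage. COL9A2 and COL23A1 passed through the preadipocytes alone, and COL4A3, COL4A6 and COL28A1 through the differentiated cells alone. Of these, COL4A6 was not called. The 14 called genes had the same sign in 4 of 4 fetal groups, although COL4A3 was at 0.01 in MC, where its mean was 1.96 before and 1.15 after differentiation. The median log2 fold change of all genes tested was 0.03. Below, the stages of a fetal group are said not to overlap where all values of one lay above the other. This held for 16.1% of all genes in MC, 10.1% in FC, 11.1% in MFGR and 11.3% in FFGR. The share of all genes without overlap in 4 of 4 groups was not counted. The scale of fold changes here is log2(value + 1), so the change of low genes is understated. With the replicate number as a block, 18 were called (12 higher, 6 lower) against 31.6% of all genes, the added genes being COL4A6, COL11A1, COL12A1 and COL13A1. With the span slope as a covariate 21 were called (13 higher, 8 lower) against 33% of all genes, and the 7 added were COL1A1, COL1A2, COL4A6, COL5A1, COL6A3, COL11A1 and COL12A1.

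**Figure D2:**
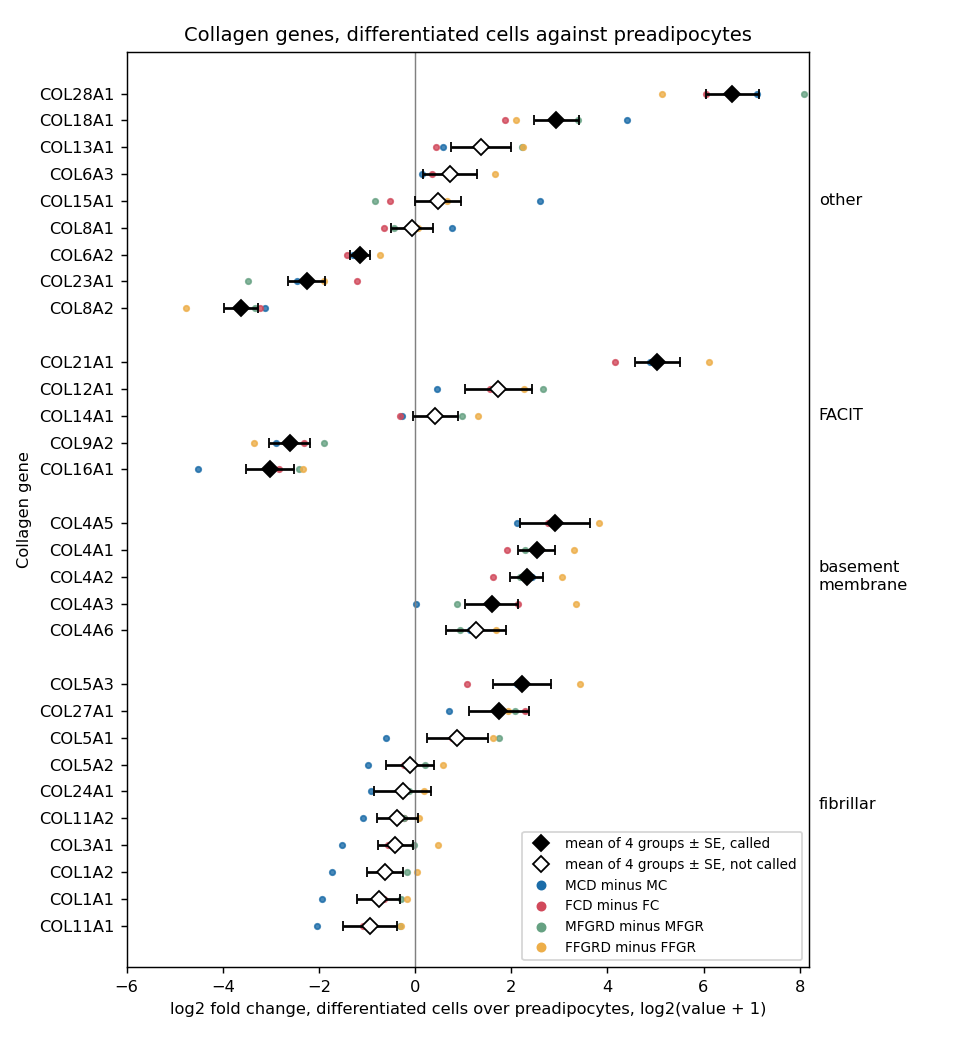
Log2 fold change of the 29 collagen genes, differentiated cells over preadipocytes, by class. Diamonds are the mean over 4 fetal groups with its standard error, filled where called, and coloured dots are the single groups. COL28A1 at 6.60 and COL8A2 at −3.62 mark the ends, and 4 of 5 basement membrane genes are filled on the right. COL28A1 and, among these 4, COL4A3 passed the filter through the differentiated cells alone.

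COL4A1 and COL4A2 encode the chains of the type IV network found in nearly every basement membrane, and both rose. They lie next to each other on Oar_rambouillet_v1.0, COL4A1 (ENSOARG00020003497, chromosome 10, 94950481 to 95078243) and COL4A2 (ENSOARG00020003888, chromosome 10, 95078388 to 95235708), with 144 bases between them. In preadipocytes, COL4A1 measured 19191, 15770, 8545 and 8163 in MC, 13116, 2628, 8572 and 17332 in FC, 4539, 30474, 8878 and 10594 in MFGR, and 5638, 1162, 7175 and 19784 in FFGR. After differentiation, COL4A1 measured 95939, 55762, 157435 and 33211 in MCD, 23619, 23792, 79814 and 22970 in FCD, 49991, 68426, 61522 and 35312 in MFGRD, and 125705, 85015, 13472 and 62682 in FFGRD. The highest preadipocyte value was 30474, and 12 of 16 differentiated libraries lay above it. COL4A1 was 5.76-fold higher after differentiation (log2 2.53, SE 0.38, adjusted p = 7.65e-06). In preadipocytes, COL4A2 measured 9718, 6857, 4710 and 3881 in MC, 6196, 1863, 4471 and 8764 in FC, 2553, 15486, 4050 and 4087 in MFGR, and 3277, 681, 3745 and 10166 in FFGR. After differentiation, COL4A2 measured 38482, 28582, 56313 and 16922 in MCD, 12138, 10777, 29826 and 10116 in FCD, 24731, 31664, 25426 and 14103 in MFGRD, and 60367, 38774, 6519 and 26317 in FFGRD. For COL4A2, 11 differentiated libraries exceeded the highest preadipocyte library. The log2 fold change of COL4A2 was 2.32 (SE 0.35, adjusted p = 7.5e-06). The ratio of COL4A1 to COL4A2 values stayed between 1.41 and 2.8 in the 32 libraries, with a median of 1.96 in preadipocytes and 2.2 after differentiation. Endothelial cells also lay down type IV collagen. Of 7 endothelial markers 4 passed the filter and 1 fell (KDR, −1.43), where 27.2% of all genes were called. CLDN5 was at 0 in all preadipocytes and at most 1.49. The summed level of these markers ranged from 11.5 to 92.7 before and from 5.84 to 288.9 after differentiation.

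COL4A3 and COL4A5 encode chains of the type IV network known from glomerular and alveolar basement membranes, and COL4A5 and COL4A6 are neighbours on chromosome X, 161 bases apart. In preadipocytes, COL4A5 measured 7.35, 2.04, 9.23 and 2.88 in MC, 26.2, 3.81, 183 and 1.54 in FC, 3.49, 17.5, 102 and 5.32 in MFGR, and 2.53, 0, 25.3 and 121 in FFGR. After differentiation, COL4A5 measured 195, 5.89, 8.38 and 26.8 in MCD, 474, 6.80, 355 and 96.2 in FCD, 37.6, 226, 164 and 134 in MFGRD, and 114, 294, 42.1 and 316 in FFGRD. COL4A5 (ENSOARG00020017079, chromosome X, 134898322 to 135159328) had a log2 fold change of 2.91 (SE 0.72, adjusted p = 0.00237), and 6 differentiated libraries lay above the highest preadipocyte library. Its values spread over a wide range within each group. In preadipocytes, COL4A3 measured 0, 0, 2.05 and 5.77 in MC, 0, 1.27, 4.98 and 0.771 in FC, 0, 1.09, 1.25 and 1.06 in MFGR, and 1.69, 0, 0.939 and 1.51 in FFGR. After differentiation, COL4A3 measured 1.13, 1.47, 0.838 and 1.17 in MCD, 188, 0.971, 23.7 and 0 in FCD, 8.96, 3.36, 1.54 and 0 in MFGRD, and 2.36, 17.8, 33.9 and 63.3 in FFGRD. COL4A3 (ENSOARG00020021472, chromosome 2, 244626028 to 244782348) reached 10 in no preadipocyte library, and its 5 libraries at 10 or more were all differentiated cells of females. Its log2 fold change was 1.59 (SE 0.56, adjusted p = 0.0284), and the call was lost without the 9 libraries above (log2 1.38, adjusted p = 0.144) and without FFGRD 4 (adjusted p = 0.0509). COL4A6 had 7 differentiated and 2 preadipocyte libraries at 10 or more and was not called (log2 1.27, adjusted p = 0.12). It was called with the slope covariate (log2 1.31, adjusted p = 0.0441) and with the replicate block (log2 1.27, adjusted p = 0.0258). Renal epithelium also expresses these chains. Of its 5 markers UMOD was at 0 in all libraries and CDH16 reached at most 2.97. CDH1 was not called (log2 0.32, adjusted p = 0.751) and EPCAM did not pass the filter, and both were highest in FFGR 4, at 92.0 and 19.8. PAX8 fell (log2 −3.01, adjusted p = 2.04e-06). Their summed level ranged from 12.9 to 201.0 before and from 1.55 to 57.5 after differentiation.

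COL18A1 and COL15A1 encode the multiplexins, collagens of the basement membrane zone that carry glycosaminoglycan chains. COL18A1, the source of endostatin, rose with differentiation. In preadipocytes, COL18A1 measured 51.5, 188, 36.9 and 131 in MC, 175, 374, 823 and 129 in FC, 456, 386, 443 and 93.5 in MFGR, and 32.1, 424, 1919 and 3589 in FFGR. After differentiation, COL18A1 measured 1665, 3517, 1737 and 1004 in MCD, 652, 470.4, 2217 and 1832 in FCD, 3906, 1698, 4445 and 3063 in MFGRD, and 2860, 1596, 1928 and 3754 in FFGRD. COL18A1 (ENSOARG00020007293, chromosome 1, 288558136 to 288649898) was 7.7-fold higher (log2 2.94, SE 0.46, adjusted p = 1.43e-05) and higher in 4 of 4 fetal groups. The FFGR group spread widely, with FFGR 4 the highest of the preadipocytes, and 3 differentiated libraries lay above it. In preadipocytes, COL15A1 measured 69.8, 172, 88.2 and 72 in MC, 285, 66.1, 130.5 and 824 in FC, 229.7, 1004, 279 and 499 in MFGR, and 368, 73.5, 335 and 422 in FFGR. After differentiation, COL15A1 measured 177, 816, 922 and 807 in MCD, 230.4, 118, 557 and 30.2 in FCD, 1353, 191, 267 and 44.8 in MFGRD, and 1811, 228, 592 and 101 in FFGRD. The stages overlapped in FC, MFGR and FFGR and not in MC. COL15A1 (ENSOARG00020001148, chromosome 2, 51462781 to 51578829), which links basement membranes to fibrils, was not called over the 4 groups (log2 0.48, SE 0.48, adjusted p = 0.501). By group, its log2 fold change was 2.6 in MC, −0.53 in FC, −0.84 in MFGR and 0.67 in FFGR. Without the 9 libraries the mean was −0.26 (adjusted p = 0.743).

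COL1A1 and COL1A2 encode the chains of type I collagen and COL3A1 that of type III, the main fibrils of loose connective tissue. None of them was called. In preadipocytes, COL1A1 measured 378678, 323980, 464795 and 168736 in MC, 446124, 96053, 288410 and 317001 in FC, 86688, 335897, 350289 and 135100 in MFGR, and 209354, 56736, 75926 and 323394 in FFGR. After differentiation, COL1A1 measured 298543, 110857, 89218 and 15368 in MCD, 169292, 34451, 200631 and 565516 in FCD, 74511, 255812, 173353 and 182665 in MFGRD, and 100961, 221703, 26850 and 304849 in FFGRD. The highest library, FCD 4, and the lowest, MCD 4, were both differentiated. FCD 4 also had the lowest ADIPOQ of the differentiated libraries (8.59), and MCD 4 was among the libraries with a low span slope. COL1A1 (ENSOARG00020012432, chromosome 11, 26852841 to 26869485) had a log2 fold change of −0.76 (SE 0.44, adjusted p = 0.203). In preadipocytes, COL1A2 measured 431957, 318196, 497388 and 251536 in MC, 461860, 179231, 342925 and 441675 in FC, 140619, 370747, 353400 and 188480 in MFGR, and 242572, 77908, 108832 and 324731 in FFGR. After differentiation, COL1A2 measured 296658, 98371, 129740 and 36217 in MCD, 202329, 52331, 272289 and 734920 in FCD, 98738, 358535, 224175 and 270822 in MFGRD, and 147572, 291185, 46496 and 368560 in FFGRD. Again FCD 4 was the highest library and MCD 4 the lowest. COL1A2 (ENSOARG00020017657, chromosome 4, 13598416 to 13634733) gave −0.63 (SE 0.37, adjusted p = 0.213). The ratio of COL1A1 to COL1A2 ranged from 0.42 in MCD 4 to 1.13 in MCD 2. In preadipocytes, COL3A1 measured 513359, 317210, 713676 and 260431 in MC, 440018, 171108, 435954 and 506377 in FC, 118100, 451401, 255123 and 253191 in MFGR, and 208125, 52021, 81214 and 403543 in FFGR. After differentiation, COL3A1 measured 329239, 89064, 267934 and 55895 in MCD, 326680, 73047, 435982 and 328472 in FCD, 160856, 324317, 193150 and 325803 in MFGRD, and 254339, 302885, 62348 and 278451 in FFGRD. Here the highest library, MC 3, and the lowest, FFGR 2, were both preadipocytes. COL3A1 (ENSOARG00020013296, chromosome 2, 130212723 to 130252335) gave −0.41 (SE 0.36, adjusted p = 0.431). For these 3 genes the ranges of the stages overlapped. With the span slope as a covariate COL1A1 (log2 −0.72, adjusted p = 0.0284) and COL1A2 (log2 −0.60, adjusted p = 0.0383) were called lower.

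COL5A1 and COL5A3 encode chains of type V collagen, which starts fibrils and sets their width. In preadipocytes, COL5A1 measured 100378, 82714, 62024 and 17539 in MC, 132022, 9093, 76878 and 77088 in FC, 4522, 51570, 143009 and 18221 in MFGR, and 64698, 5582, 10333 and 67214 in FFGR. After differentiation, COL5A1 measured 201605, 35780, 55022 and 4211 in MCD, 130864, 13241, 152541 and 220002 in FCD, 20499, 215060, 207119 and 84574 in MFGRD, and 61132, 217873, 7297 and 239811 in FFGRD. The highest library was FFGRD 4 and the lowest MCD 4. COL5A1 (ENSOARG00020001060, chromosome 3, 1504998 to 1729472) was not called (log2 0.88, SE 0.64, adjusted p = 0.322), and was called at 1.13 without the 9 libraries (adjusted p = 0.0282) and at 0.95 with the slope covariate. In preadipocytes, COL5A3 measured 1379, 613, 579 and 244 in MC, 2507, 58.5, 366 and 358 in FC, 142, 465, 720.1 and 379.9 in MFGR, and 3542, 11.1, 98.6 and 349.7 in FFGR. After differentiation, COL5A3 measured 1607, 1374, 11562 and 1691 in MCD, 542, 925, 3295 and 233 in FCD, 5494, 1246, 681 and 1972 in MFGRD, and 7085, 2896, 881 and 1147 in FFGRD. The stages overlapped in each fetal group, with FFGR 2 the lowest library and MCD 3 the highest. COL5A3 (ENSOARG00020001143, chromosome 5, 12816844 to 12861828) rose (log2 2.22, SE 0.61, adjusted p = 0.00561), and 3 differentiated libraries lay above the highest preadipocyte library. Its call was lost without the 9 libraries (log2 1.40, adjusted p = 0.0515) and when its highest transcript replaced the sum. COL5A2, the partner chain, lies 18636 bases from COL3A1 and was not called (log2 −0.11, adjusted p = 0.901). In preadipocytes, COL27A1 measured 517, 301, 147 and 109.6 in MC, 514, 14, 314 and 84.8 in FC, 15.4, 102, 394 and 196 in MFGR, and 561, 9.71, 28.2 and 253 in FFGR. After differentiation, COL27A1 measured 672, 622, 376 and 113 in MCD, 1008, 1626, 487 and 148 in FCD, 107, 342, 884 and 1222 in MFGRD, and 898, 395, 37.4 and 684 in FFGRD. FFGR 2 was the lowest library and FCD 2 the highest, and the stages overlapped in each fetal group. COL27A1 (ENSOARG00020018339, chromosome 2, 9761531 to 9909229), a fibrillar collagen best known from cartilage, had a log2 fold change of 1.75 (SE 0.62, adjusted p = 0.03). Its call was lost in 7 of 32 fits that left out a single library (FC 2, FCD 2, MFGR 1, MFGRD 4, FFGR 2, FFGR 3 or FFGRD 1), with adjusted p of 0.0504 to 0.0549. COL11A1 (log2 −0.94), COL11A2 (−0.37) and COL24A1 (−0.26) were not called. COL11A1 was called lower with the slope covariate (log2 −0.88, adjusted p = 0.0057) and with the replicate block (log2 −0.94, adjusted p = 0.0476).

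COL21A1 is a FACIT collagen and COL16A1 a related one that associates with fibrils and microfibrils, and they moved in opposite directions. In preadipocytes, COL21A1 measured 15.9, 7.14, 9.22 and 54.6 in MC, 15.2, 0, 6.98 and 34 in FC, 6.99, 15.3, 4.97 and 17 in MFGR, and 6.77, 1.39, 3.77 and 12.9 in FFGR. After differentiation, COL21A1 measured 353, 172, 983 and 1001 in MCD, 523, 54.2, 432 and 34.4 in FCD, 292, 939, 331 and 171 in MFGRD, and 913, 452, 276 and 244 in FFGRD. COL21A1 (ENSOARG00020024249, chromosome 20, 5214314 to 5605501) was 33.0-fold higher (log2 5.04, SE 0.47, adjusted p = 4.24e-09). The stages did not overlap within any of the 4 fetal groups, and 14 of 16 differentiated libraries exceeded the highest preadipocyte library at 54.6. In preadipocytes, COL16A1 measured 13719, 12904, 16106 and 5659 in MC, 10042, 3417, 11776 and 16195 in FC, 3244, 17442, 12040 and 8166 in MFGR, and 7649, 2879, 5842 and 11867 in FFGR. After differentiation, COL16A1 measured 3085, 451, 352 and 121 in MCD, 539, 582, 1688 and 4817 in FCD, 525, 3899, 1087 and 3071 in MFGRD, and 833, 3650, 138 and 5657 in FFGRD. COL16A1 (ENSOARG00020008158, chromosome 2, 251389312 to 251444919) fell, 8.12-fold lower after differentiation (log2 −3.02, SE 0.49, adjusted p = 1.95e-05), with no overlap in the male controls. In preadipocytes, COL9A2 measured 38, 20.3, 14.3 and 8.60 in MC, 72.9, 16.6, 14.9 and 5.41 in FC, 7.67, 4.34, 16.1 and 11.6 in MFGR, and 146, 22.3, 6.60 and 3.04 in FFGR. After differentiation, COL9A2 measured 4.48, 2.94, 0.845 and 0 in MCD, 1.52, 12.6, 1.07 and 2.12 in FCD, 3.60, 2.52, 0.775 and 0.862 in MFGRD, and 0, 1.56, 1.17 and 0.748 in FFGRD. Only in FC did the stages overlap, through FCD 2. COL9A2 (ENSOARG00020026019, chromosome 1, 15501429 to 15516195), a chain of the type IX collagen that coats cartilage fibrils, fell from low values (log2 −2.61, SE 0.43, adjusted p = 2.57e-05). Of 5 chondrocyte markers 2 rose (CNMD, log2 2.50, and HAPLN1, log2 1.71), and their summed level ranged from 6.998 to 946.2 before and from 51.1 to 348.0 after differentiation. COL12A1 and COL14A1, FACIT collagens of dense connective tissue, were not called. COL12A1 ranged from 1872 to 96691 in preadipocytes and from 5792 to 310873 after differentiation (log2 1.73, SE 0.70, adjusted p = 0.0563), and was called with the slope covariate (1.80), with the replicate block (adjusted p = 0.00259) and without the 9 libraries (1.90).

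COL8A2, a short-chain collagen that forms hexagonal networks, was the only collagen of the 29 with no overlap between all 16 preadipocyte and all 16 differentiated libraries, as had 139 of all genes tested. In preadipocytes, COL8A2 measured 185, 239, 108 and 79.1 in MC, 329, 162, 268 and 399 in FC, 347, 252, 912 and 90.2 in MFGR, and 994, 516, 1072 and 992 in FFGR. After differentiation, COL8A2 measured 43.9, 14.7, 16 and 4.66 in MCD, 6.81, 61, 26.9 and 54.2 in FCD, 70.0, 36.1, 36.3 and 6.03 in MFGRD, and 29.2, 23.3, 16.4 and 76.1 in FFGRD. COL8A2 (ENSOARG00020013134, chromosome 1, 11385626 to 11389353) lay at 79.1 or above in preadipocytes and at 76.1 or below after differentiation, 12.3-fold lower (log2 −3.62, SE 0.36, adjusted p = 1.57e-08). COL8A1, the other chain of type VIII collagen, was not called (log2 −0.07, adjusted p = 0.936). COL6A2 and COL6A3 encode chains of type VI collagen, whose beaded filaments surround fat cells. In preadipocytes, COL6A2 measured 66430, 52182, 73469 and 37507 in MC, 80087, 59402, 61826 and 74043 in FC, 69866, 100238, 50439 and 33715 in MFGR, and 58120, 31744, 49263 and 55831 in FFGR. After differentiation, COL6A2 measured 33438, 20974, 34797 and 10819 in MCD, 30198, 16527, 32095 and 27306 in FCD, 36303, 35320, 14794 and 29242 in MFGRD, and 25070, 49475, 16451 and 32328 in FFGRD. The stages did not overlap in the controls of either sex, as in 16.1% of all genes in MC and 10.1% in FC, and did so in both growth-restricted groups. The log2 fold change was −1.29 in MC, −1.41 in FC, −1.11 in MFGR and −0.74 in FFGR. No interaction with growth restriction was called, so a difference between the groups is not shown. COL6A2 (ENSOARG00020008627, chromosome 1, 289171922 to 289203560) fell by 1.14 on the log2 scale (SE 0.21, adjusted p = 0.000113), and its call was lost with its highest transcript in place of the sum. In preadipocytes, COL6A3 measured 20240, 24441, 13837 and 7911 in MC, 31488, 2413, 24623 and 41712 in FC, 4534, 46787, 23840 and 24412 in MFGR, and 14795, 1335, 3889 and 22827 in FFGR. After differentiation, COL6A3 measured 40575, 14100, 33209 and 4245 in MCD, 26935, 5128, 54215 and 28354 in FCD, 10038, 41337, 37139 and 65916 in MFGRD, and 67273, 48455, 1480 and 36994 in FFGRD. FFGR 2 was the lowest library and FFGRD 1 the highest. COL6A3 (ENSOARG00020002421, chromosome 1, 3673053 to 3764162) was not called (log2 0.73, SE 0.56, adjusted p = 0.347). It was called higher with the slope covariate (0.79) and without the 9 libraries (0.86, adjusted p = 0.00424).

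**Figure D3:**
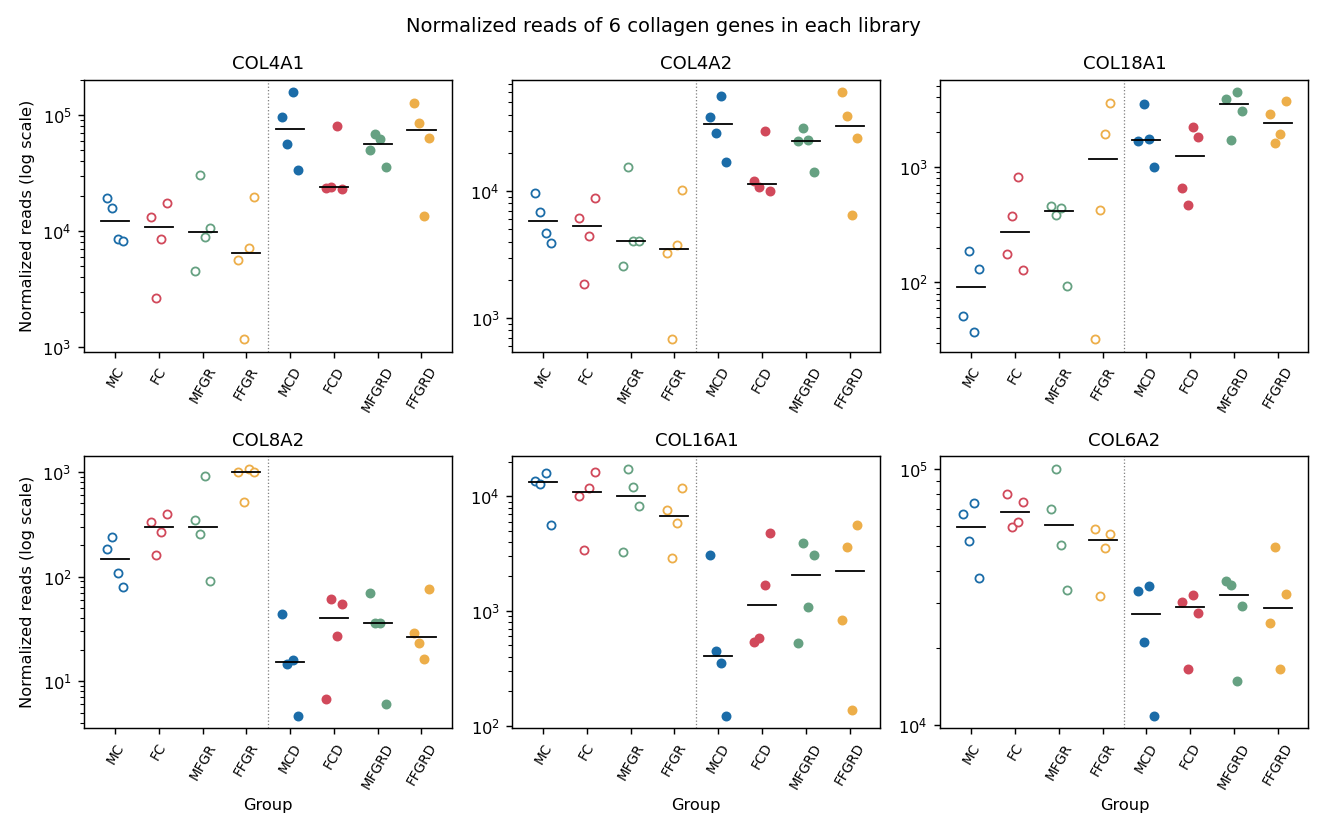
Values of 6 collagen genes in the 32 libraries on a log axis, in normalized reads. Open points are preadipocytes, filled points differentiated cells, and the bar is the median of 4 libraries. COL4A1, COL4A2 and COL18A1 are higher after differentiation in each fetal group on average, COL16A1 and COL6A2 are lower, and COL8A2 does not overlap between stages.

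COL28A1, a collagen with von Willebrand A domains that is known from the basement membranes of peripheral nerve, had the highest fold change of the 29. In preadipocytes, COL28A1 measured 0, 0, 1.02 and 0 in MC, 5.51, 1.27, 0 and 0 in FC, 0.697, 0, 0 and 0 in MFGR, and 35.5, 4.17, 4.69 and 0 in FFGR. After differentiation, COL28A1 measured 217, 35.2, 671 and 141 in MCD, 1061, 20.3, 327 and 38.6 in FCD, 1033, 218, 48.6 and 828 in MFGRD, and 113, 218, 192 and 330.4 in FFGRD. COL28A1 (ENSOARG00020000523, chromosome 4, 17395017 to 17602033) was at 0 in 9 of 16 preadipocyte libraries and in none of the differentiated ones, and the stages did not overlap in any fetal group. Its log2 fold change was 6.60 (SE 0.55, adjusted p = 6.36e-10) with a pseudocount of 1 and 8.67 with 0.1, so its size rests on the pseudocount. The leading transcript of COL28A1 differed between libraries. Of the Schwann cell markers, SOX10 reached at most 2.58, while S100B, also expressed by adipocytes, rose (log2 1.06, adjusted p = 0.00453). In preadipocytes, COL23A1 measured 35.5, 8.10, 5.10 and 10.0 in MC, 2.75, 2.55, 1.99 and 10.1 in FC, 16.7, 15.2, 18.5 and 16.9 in MFGR, and 11.9, 2.79, 2.83 and 4.56 in FFGR. After differentiation, COL23A1 measured 8.96, 1.47, 0 and 0 in MCD, 3.04, 0, 0 and 2.83 in FCD, 0, 0, 5.43 and 0 in MFGRD, and 0, 0, 1.18 and 1.498 in FFGRD. COL23A1 (ENSOARG00020015159, chromosome 5, 39563880 to 39943863), a transmembrane collagen, was above 0 in all preadipocyte libraries and at 0 in 9 of 16 differentiated ones (log2 −2.26, SE 0.38, adjusted p = 3.08e-05). Most of its values after differentiation stood for a few reads or none. COL13A1, another transmembrane collagen, was not called (log2 1.37, adjusted p = 0.0899), and was with the replicate block (adjusted p = 0.00924).

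**Figure D4:**
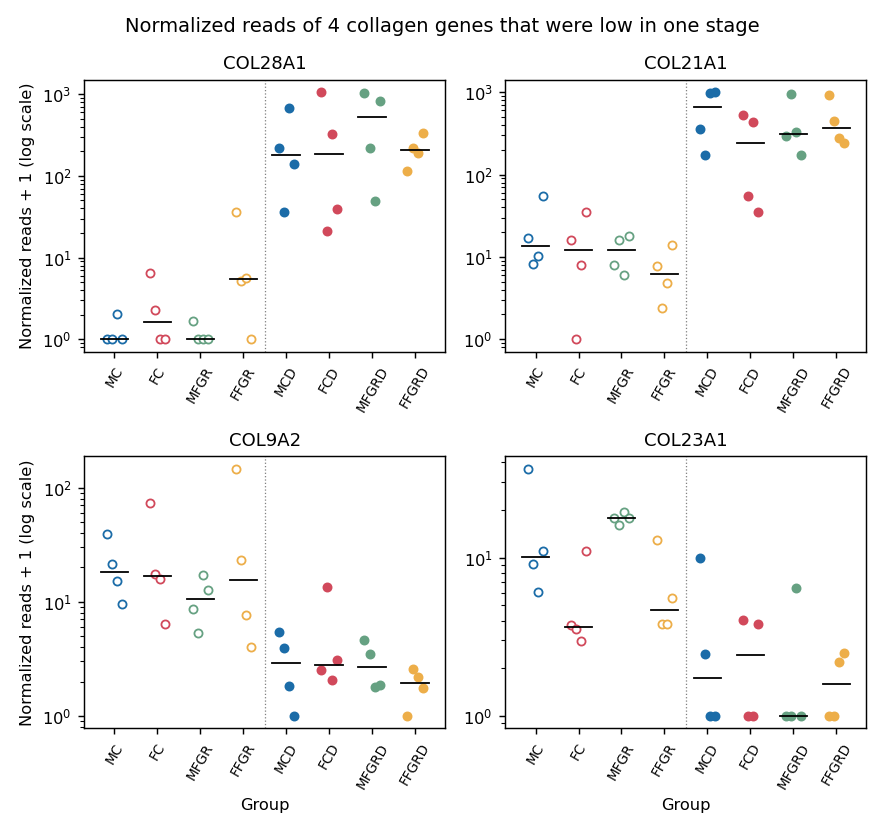
Values plus 1 of 4 collagen genes of low abundance in the 32 libraries, on a log axis, in normalized reads. COL28A1 and COL21A1 are higher after differentiation with no overlap in any fetal group, and COL9A2 and COL23A1 are lower, with many differentiated libraries at or near 0.

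Of the 11 collagens that did not pass the filter, COL9A1, COL19A1, COL22A1 and COL26A1 reached 10 in no library, and 7 did so in 1 to 3 libraries. COL2A1, the fibrillar collagen of cartilage, was at 0 in 13 preadipocyte libraries and reached 33.3 in FCD 1. COL6A5 reached 28.6 in MFGRD 1, COL10A1 27.5 in FC 1, COL9A3 24.7 in FFGR 1, COL6A6 23.6 in MC 3, COL17A1 17.3 in FCD 3 and COL25A1 10.8 in MFGRD 1. A fit with no filter on low values tested all 40 collagens and called 16, against 18.7% of 19512 genes. It added COL2A1 (log2 1.74, adjusted p = 8.89e-05) and COL17A1 (log2 1.13, adjusted p = 0.0419), both higher after differentiation, and the other 9 were not called.

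Within the single fetal groups, 4 differentiated libraries were compared with 4 preadipocyte libraries. In MC, 8 of 24 collagens were called against 7.53% of all genes (3.33% higher, 4.21% lower), all 8 without overlap. In all, 9 of the 24 did not overlap between the stages in MC, against 16.1% of all genes. COL4A1 (log2 2.59), COL4A2 (2.44), COL15A1 (2.6), COL18A1 (4.41), COL21A1 (4.89) and COL28A1 (7.12) rose, and COL8A2 (−3.12) and COL16A1 (−4.51) fell. Their adjusted p ranged from 0.00205 to 0.0202. Without 1 library, COL15A1 lost its call in MC in 6 of 8 fits, COL8A2 in 4, COL4A1 in 3 and COL16A1 in 1. COL15A1 also lost it with the slope covariate, the highest transcript, the single fit of all groups and without the low-slope libraries. In FC none of 25 was called by limma, against 0.43% of all genes (0.181% higher, 0.249% lower). At an unadjusted p below 0.05 there were 9 of the 25 in FC, against 12.6% of all genes. In MFGR 4 of 25 were called against 3.38% of all genes (1.22% higher, 2.16% lower), with COL18A1 (3.39), COL21A1 (5.03) and COL28A1 (8.09) higher and COL23A1 (−3.48) lower. In FFGR 3 of 26 were called against 2.67% of all genes (0.914% higher, 1.76% lower), with COL21A1 (6.11) and COL28A1 (5.13) higher and COL8A2 (−4.77) lower. The call of COL28A1 in FFGR was lost in 7 of 8 fits without 1 library. In MFGR, that of COL18A1 was lost in 2 of 8, and that of COL23A1 in 3 of the 4 in which it was tested. Of the calls in single groups, 3 of 8 in MC (COL21A1, COL28A1 and COL8A2) and 3 of 4 in MFGR (COL21A1, COL28A1 and COL23A1) passed the filter through the higher stage alone. In FFGR 2 of 3 did so (COL21A1 and COL28A1). Passing and a difference between stages are linked for these genes, though the filter did not fix a call. In the lower stage, COL8A2 in MC had 3 libraries at 10 or more, and COL21A1 had 2 in MC and in MFGR. There COL21A1 and COL28A1 had 1 in FFGR, and COL28A1 in MC and MFGR and COL23A1 in MFGR had 0. Libraries with the same number deviated together in MC, FC and MFGR. When that number entered the fit as a block, the counts were 13 in MC (7 higher, 6 lower), 2 in FC (1 higher, 1 lower) and 14 in MFGR (10 higher, 4 lower). The calls over all genes rose as well with the block, to 16% in MC, 1.69% in FC and 17.9% in MFGR. It added COL1A1, COL1A2, COL5A3, COL6A2 and COL11A1 in MC, COL16A1 and COL28A1 in FC, and COL4A1, COL4A2, COL4A5, COL5A1, COL6A2, COL8A2, COL12A1, COL14A1, COL16A1 and COL27A1 in MFGR. Without the 9 libraries named above they were 4 in MC, 2 in FC, 2 in MFGR and 0 in FFGR, with 2 to 4 libraries left in each group, against 1.73%, 1.85%, 3.91% and 0.0182% of all genes. Leaving out MCD 3 took the count in MC to 3 and MCD 2 to 5. Leaving out any 1 of MFGRD 1, 2 and 3 took the count in MFGR to 2, and MFGRD 4 to 1. In each of these fits 1 of the lost genes was COL28A1, which no longer passed the filter and was not tested. A difference in response between the fetal groups is not shown by these counts, and its test is given with growth restriction.

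Enzymes that make and cross-link collagen changed in both directions. Of 29 biosynthesis and cross-linking genes tested, 3 rose and 9 fell with differentiation, again against 27.2% of all genes. P3H2, a prolyl 3-hydroxylase that acts on type IV collagen, went from a median of 27.4 (range 4.24 to 243.5) to 744.8 (240.3 to 1258), a log2 change of 4.27 (SE 0.42, adjusted p = 1.06e-08). P3H4, an endoplasmic reticulum partner of the lysyl hydroxylases, fell by 1.45 (SE 0.22), and the lysyl oxidase family member LOXL1 fell by 1.44 (SE 0.27). LOXL4, of the same family, rose from low values (2.56, SE 0.46). Of 13 degradation and uptake genes, 2 rose and 6 fell. FAP, a serine protease of activated fibroblasts, went from a median of 12013 to 1141 (log2 −3.24, SE 0.30, adjusted p = 3.18e-09). MMP15, a membrane metalloproteinase, rose by 1.97 (SE 0.23), the inhibitor TIMP2 fell by 1.58 (SE 0.20) and TIMP3 rose by 1.92 (SE 0.28).

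Of 8 collagen receptors, 2 rose and none fell, where 27.2% of all genes were called. CD36, which binds collagen and takes up fatty acids, went from a median of 15.1 to 1990 (log2 6.72, SE 0.61, adjusted p = 3.19e-09), and the receptor kinase DDR1 rose by 0.83 (SE 0.29, adjusted p = 0.0256). Of 13 fibril-associated proteoglycans and organisers, none rose and 8 fell. Fibromodulin (FMOD), which regulates fibril width, went from a median of 1323 (range 226.1 to 2689) to 74.4 (0 to 512.8), a log2 change of −4.63 (SE 0.55, adjusted p = 2.42e-07). THBS2 fell by 2.41 (SE 0.34), PRELP by 3.26 (SE 0.47) and decorin (DCN) by 1.28 (SE 0.21). The lists were described by their counts, and nothing particular to a list was tested. Markers of other cells moved as follows. Of 9 preadipocyte or fibroblast markers 8 passed the filter, and 2 rose and 3 fell (ENG −2.13, S100A4 −3.85, THY1 1.65, PDGFRB −0.82). Their summed level ranged from 4273 to 26210 before and from 5319 to 29047 after. Of 7 smooth muscle or pericyte markers 6 passed the filter and 4 fell (CNN1 −2.73, DES −3.43, ACTA2 −1.81, CSPG4 −1.81). Their summed level ranged from 6941 to 61072 before and from 1337 to 16039 after. Of 7 macrophage or other leukocyte markers 3 passed the filter, and PTPRC and AIF1 had a median of 0 over the libraries. CD14 (1.86) and CD163 (2.85) rose and CD68 (−0.81) fell. The summed level of the 7 markers was 90.5 to 1129 before and 122.5 to 950.2 after. Of 5 mesothelial markers 3 were listed, 2 passed the filter and neither of these was called. The summed level of the listed ones was at most 391.9 before and 126.7 after. Of the adipocyte markers, FABP4 (9.55), DGAT2 (7.15), PLIN4 (5.70) and PLIN1 (5.28) had the smallest adjusted p. The part of these cells in the collagen results was not tested.

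The study set the differentiation responses of control and growth-restricted fetuses of each sex side by side. Here growth-restricted cells were first compared with controls within each stage. No collagen was called between growth-restricted and control cells in preadipocytes or in differentiated cells, and limma called 0% of all genes there. At an unadjusted p below 0.05 there were 3 of 29 collagens in preadipocytes and 0 in differentiated cells, and 344 and 136 of all genes. In preadipocytes the 10 fibrillar collagens had log2 differences between −1.09 and −0.33, with a median of −0.82 against −0.02 for all genes. Of the libraries that stood apart in span slope, 3 were among the 8 growth-restricted and 1 among the 8 control preadipocyte libraries. Without the low-slope libraries the median of the 10 fibrillar genes was −0.24 and 7 were negative, and with the slope as a covariate it was −0.28 and 8 were negative. COL3A1 differed by −1.09 (95% interval −2.13 to −0.04, adjusted p = 0.84 by limma), COL18A1 by 1.38 (0.03 to 2.72, adjusted p = 0.84 by limma) and COL8A2 by 1.35 (0.29 to 2.41, adjusted p = 0.84 by limma). Without the low-slope libraries COL3A1 differed by −0.55 (−1.25 to 0.15), COL18A1 by 0.98 (−0.81 to 2.78) and COL8A2 by 1.29 (0.03 to 2.54). With the slope as a covariate the values were −0.68 (−1.27 to −0.10) for COL3A1, 1.37 (−0.01 to 2.74) for COL18A1 and 1.45 (0.39 to 2.51) for COL8A2, none of them called. After differentiation the fibrillar genes had a median of 0.24 against −0.01 for all genes, and 9 of 10 were positive. Without the low-slope libraries that median was 0.03 and 4 were negative. With the slope as a covariate it was 0.22 and 1 was negative. For the fibrillar genes the interaction of growth restriction with stage had a median of 1.09 against 0.02, was positive in 10 of 10 and was called for none. Among differentiated libraries, the low-slope ones were MCD 2, MCD 4 and FCD 2 of the controls and MFGRD 1 and FFGRD 3 of the growth-restricted. The low-slope libraries were thus unevenly spread over the groups of both stages, and their part in the interaction was not tested. In differentiated cells the values of COL3A1, COL18A1 and COL8A2 were 0.19 (−0.85 to 1.24), 0.98 (−0.36 to 2.33) and 0.47 (−0.59 to 1.53). COL4A1 differed by −0.39 (−1.5 to 0.71) in preadipocytes and by 0.15 (−0.95 to 1.25) in differentiated cells, intervals that leave room for changes of more than 1.5-fold either way. COL6A2 had the narrowest of the intervals given here, −0.83 to 0.39 and −0.40 to 0.82.

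**Figure D5:**
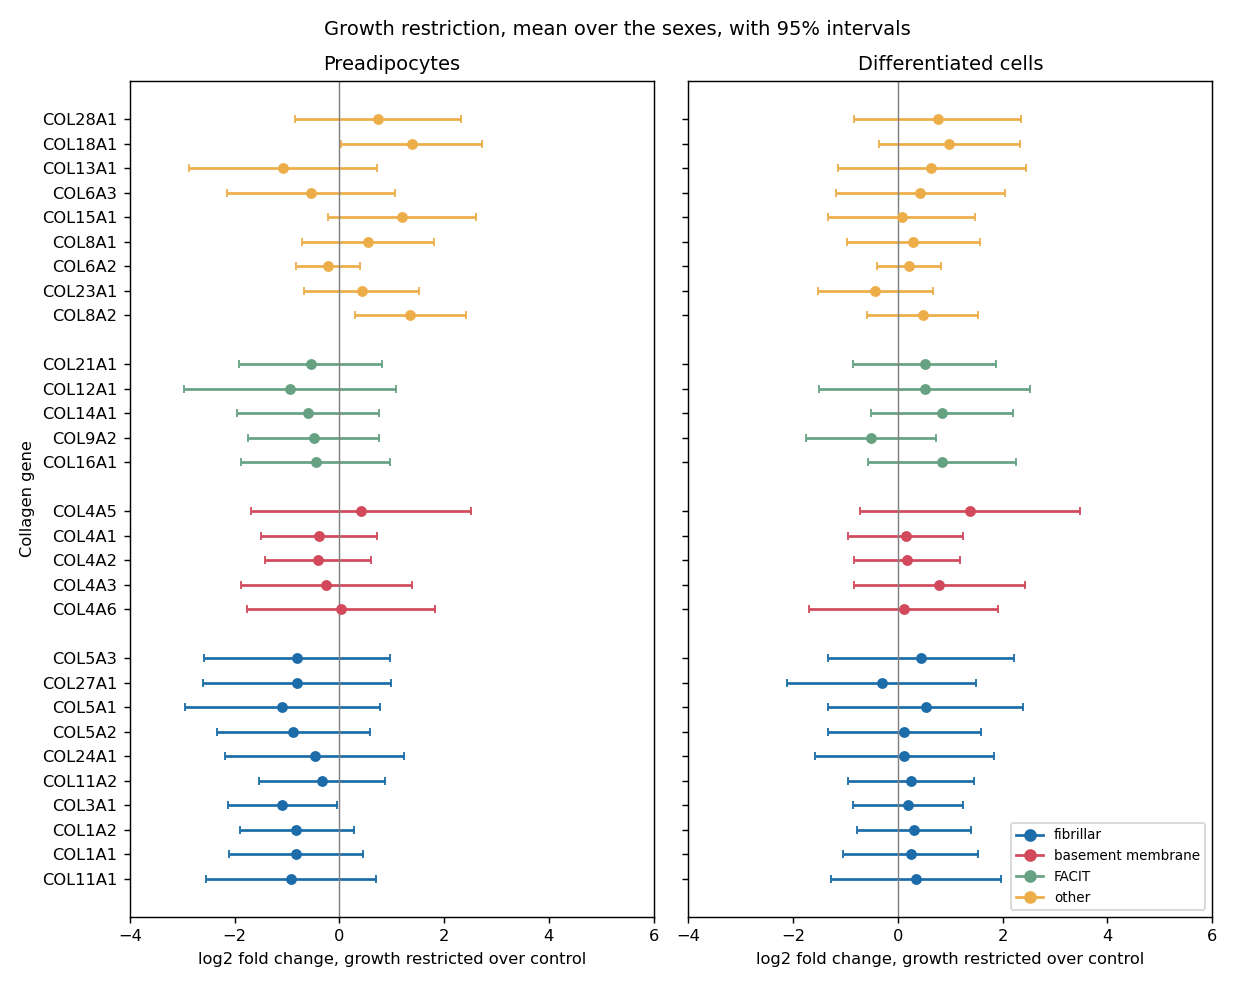
Log2 fold change of the 29 collagen genes, growth restricted over control, mean over the sexes, with 95% intervals, in preadipocytes (left) and differentiated cells (right), coloured by class. The 10 fibrillar genes lie left of 0 in preadipocytes, and no gene was called in either panel.

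In the pairwise comparisons of growth restriction and sex, each with 4 libraries a side, no collagen was called, and limma called 0% of all genes in each of the 8. In them, 4 collagens did not overlap between groups in 1 comparison each, where 0.932% of all genes did not overlap between MFGR and MC, 0.702% between FFGR and FC and 1.05% between MFGR and FFGR. COL15A1 was higher in MFGR than in MC (log2 2.17, adjusted p = 0.991 by limma), COL8A2 higher in FFGR than in FC (1.64, adjusted p = 0.985 by limma) and COL23A1 higher in MFGR than in FFGR (1.65, adjusted p = 0.987 by limma), while COL6A2 was lower in FFGR than in FC (−0.53, adjusted p = 0.985 by limma). Averaged over growth restriction, males minus females gave no call among collagens and 0% of all genes by limma, with 3 collagens at an unadjusted p below 0.05 in preadipocytes (COL18A1 −1.36, COL23A1 1.53, COL8A2 −1.26) and 1 after differentiation (COL4A3 −2.39), against 550 and 159 of all genes. Whether differentiation differed with growth restriction was tested as an interaction, which called 0% of all genes by limma, with 0 collagens and 132 of all genes at an unadjusted p below 0.05. COL15A1 had the lowest unadjusted p among collagens in males, an interaction of −3.44 (95% interval −5.89 to −0.98, adjusted p = 0.966 by limma). Its response was 2.6 in MC and −0.84 in MFGR, as given above, and its call in MC was lost in 6 of 8 fits without 1 library. In females the interaction of COL15A1 was 1.2 (−1.89 to 4.28). Of the 4 lists of collagen-related genes above, no member was called for growth restriction in either stage.

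The values were summed over transcripts because their division among transcripts varied. The leading transcript of COL1A2 held 85.4% to 91.3% of the gene by group, whereas another was at 0 in all libraries of MFGR and FFGRD and took up to 21.5% of the gene in a library of MCD.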

How the data were processed

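RNA was sequenced from 32 libraries, 4 in each of 8 groups, which were assigned by sample titles and column names. The authors discarded reads with a mean Phred score below 34 after a FastQC check, counted reads per transcript with Salmon on the Ensembl genes of Oar_rambouillet_v1.0, and scaled the reads with DESeq2. The deposited signal of each transcript and library is in these normalized reads and is not a whole-read count. The authors also deposited group means, a signed fold change score, p-values and adjusted p-values of their own comparisons, which were not used. Unnamed transcripts (8509 of 35219) held 15.6% of the values and stayed in the test as genes.

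Transcripts were summed per gene, genes at 10 or more in at least 4 of the libraries compared were kept, and log2(sum + 1) was fitted with limma 3.58.1 in R 4.3.3 (empirical Bayes with trend, Benjamini-Hochberg adjustment over all genes tested). Mean differentiation, growth restriction, sex and their interactions with stage came from a fit of all 32 libraries, interactions within a sex from 16, and single group comparisons from their own 8. A call needed an adjusted p below 0.05 and a fold above 1.5. Tested on simulated data for mean differentiation (12737 genes), the fit recovered 50.0% of genes changed by a log2 of 1, 90.0% at 2 and 100.0% at 4. For differentiation in MC (11605 genes) it recovered 4.0%, 56.0% and 86.0%. At a log2 of −1 it recovered 64.0% for mean differentiation and 10.0% in MC. The simulated noise was independent between genes and only 50 genes were changed by each size, so recovery in the real data may differ. Depth was 7.92 to 21.34 M reads, estimated from the smallest step of a library's values, so low values carry counting error of a few reads. Alternatives used a pseudocount of 0.1, no filter or a filter of 20 per M values in 3 libraries, quantile normalization, the span slope as a covariate, the highest transcript, the replicate block, a single fit of all groups and leaving out each library.

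Same-numbered libraries of both stages were compared by the correlation of their deviations from the group means. It was 0.162 to 0.615 in MC, 0.303 to 0.508 in FC, 0.393 to 0.671 in MFGR and −0.398 to 0.565 in FFGR, so the numbers were taken to pair the libraries in the first 3 groups. In MC only 3 of 4 correlated best with their own number. Low-slope libraries shared a number in FC 2 and FCD 2, MFGR 1 and MFGRD 1, and FFGR 3 and FFGRD 3. The part of the slope in these correlations was not tested. The block for mean differentiation also used the numbers in FFGR. The sources used here do not say that a number marks a fetus. Where nothing says that libraries came from separate fetuses, p-values measure the spread between these libraries, which may be technical. The members and gene lists were chosen with earlier results of these data known. Values in every library are given for collagens called in mean differentiation and for COL1A1, COL1A2, COL3A1, COL4A1, COL4A2, COL5A1, COL6A2, COL6A3, COL15A1 and COL18A1, any collagen called in another comparison is named, and of the other lists the up to 4 called genes of smallest adjusted p are named. Counting on strand is not given in the sources used here, so neighbouring genes could share reads. Some Schwann cell markers are not reported here.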

Additional observations from a re-analysis of the deposited data

Results flagged for a closer look

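A library was picked out where its gap to the nearest of the other 3 in its group took up more of the group's range than Dixon's 95% critical value allows. Over 20 genes and the collagen share, 16 of 168 groups of 4 were picked out (9.52%). Chance gives about 1 in 20 for independent groups of normally distributed values. These groups share libraries, and a group with a single value above 0 is always picked out, so the 2 rates cannot be compared. In FCD 3, COL4A1 was at 79814 and COL4A2 at 29826, the highest of their group. COL5A3 was highest in MCD 3 at 11562. COL23A1 in MFGRD 3 (5.43), COL28A1 in MC 3 (1.02) and COL28A1 in MFGR 1 (0.697) were the only values above 0 in their groups, and COL4A3 in MFGR 1 was the only value at 0. The other libraries were the lowest of their group. COL18A1 was at 93.5 in MFGR 4, COL8A2 at 515.8 in FFGR 2, and COL15A1 at 177.0 in MCD 1 and 73.5 in FFGR 2. COL3A1 was at 171108 in FC 2, 73047 in FCD 2 and 62348 in FFGRD 3. COL6A3 was at 1480 in FFGRD 3, and the collagen share of all values was 3.17% in FC 2. Of these libraries MFGR 1, FFGR 2, FC 2, FCD 2 and FFGRD 3 were among the 9 with a low slope on genomic span.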

How the results depend on the processing

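For mean differentiation the count of called collagens stayed between 11 and 21 over the alternatives (14 in the report) and between 13 and 15 when each library was left out. The 14 called genes kept their direction in 108 values over the alternatives, 103 of them still called, and in 448 values without 1 library, 440 still called. The 108 leave out genes that were no longer tested. These were COL4A3, COL9A2 and COL23A1 with the filter of 20 per M values, and COL4A3 with the highest transcript. Leaving out the low-slope libraries was chosen after seeing the data. COL4A3 was also lost with a pseudocount of 0.1 (2.30, adjusted p = 0.0569 by limma). Among uncalled genes, COL15A1 reversed without the low-slope libraries (−0.26), COL3A1 with quantile normalization (0.06), and, without 1 library, COL5A2 (−0.30 to 0.10), COL8A1 (−0.23 to 0.10) and COL24A1 (−0.49 to 0.02). Counts within single groups depended on the settings. In MC (8) the replicate block gave 13 and dropping the low-slope libraries 4, with 3 to 8 without 1 library. In FC (0) the slope covariate gave 5, the highest transcript 1, the block 2, the single fit 3 and dropping the low-slope libraries 2, with 0 without 1 library. In MFGR (4) the filter of 20 per M values gave 1, the covariate 12, the highest transcript 2, the block 14 and dropping the low-slope libraries 2, with 1 to 5 without 1 library. In FFGR (3) the filter gave 1, the covariate 8, the single fit 6 and dropping the low-slope libraries 0, with 2 to 3 without 1 library. There same-numbered libraries did not all deviate together, 2 of 4 correlated best with their own number, and the block gave 2. With the block, mean differentiation gave 18 (12 higher, 6 lower), adding COL4A6, COL11A1, COL12A1 and COL13A1. The growth restriction, sex and interaction counts were 0 under every alternative. Depth limits COL9A2, COL23A1, COL4A3 and COL28A1, whose low values stood for a few reads.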
